A study of Mus musculus with 6 samples.

Results

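The IGF1 pathway was examined in the left ventricles of male CD-1 mice at 1 year of age whose dams had been treated during gestation with caffeine or with vehicle. The members were 9 genes fixed by their mouse symbols, the ligand Igf1, the receptors Igf1r and Insr, the adaptor Irs1 and the binding protein genes Igfbp3, Igfbp4, Igfbp5, Igfbp6 and Igfbp7. They were taken from the 43629 genes of the count files, and all 9 were among the 13092 genes that passed the filter on low counts and were tested. Pregnant outbred CD-1 mice received normal saline (vehicle) or 20 mg/kg caffeine in saline once daily by intraperitoneal injection, from E6.5 to E9.5 by the study's methods, while 1 field of the sample labels and 1 heading in the study's text end it at E10.5. The RNA came from 6 F1 hearts, 3 per treatment, with no genetic change in either group. Caffeine, an adenosine receptor antagonist, was given to the dams only, and no source states which dam or litter each heart came from. The p-values therefore take the hearts as independent, and hearts of 1 litter in the same group cannot be told apart from a treatment effect.

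Insulin-like growth factor 1 (IGF1) is a secreted growth factor, made in the liver under growth hormone and also locally in tissues. It binds the tyrosine kinase IGF1R, whose close relative INSR is the receptor of insulin, and both phosphorylate insulin receptor substrates such as IRS1. These recruit PI3K and start AKT signalling, which activates mTOR, restrains the FoxO transcription factors and in the heart favours cardiomyocyte growth and survival. IGF-binding proteins (IGFBPs) hold IGFs outside the cell, prolong their life and limit or deliver them to the receptor, and proteases that cut the IGFBPs set the IGF free.

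Total counts ran from 7613011 to 10483101 per heart, and every caffeine-treated heart had fewer counts than every vehicle-treated heart. Values are given in CPM, each gene's count relative to the heart's total after scaling with edgeR's TMM factors. The lowest level that can be shown, 3 counts in a heart, ran from 0.286 to 0.394 CPM. This floor covers counting error only and was taken from total counts without the TMM factors. The 10 genes with the most counts held 17.1% to 26.0% of a heart's counts, more in each caffeine-treated heart. Markers of ventricular muscle were high, as the tissue label implies. The 7 cardiomyocyte markers, which include Myh6 and Myl2, summed to 50544 to 59650 CPM, while the 4 atrial markers summed to 0.840 to 2.35 CPM and the 5 adipocyte markers to 0.113 to 3.13 CPM.

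The 3 binding protein genes Igfbp5, Igfbp6 and Igfbp7 were higher in each of the 3 caffeine-treated hearts than in any vehicle-treated heart, with fitted changes of 50.9%, 49.6% and 14.7%, but for Igfbp7 not when counts were scaled by library size only. The other 6 members overlapped between the treatments. A gene was called changed at a Benjamini-Hochberg adjusted p below 0.05 over all tested genes and a fold change above 1.5 in either direction, the thresholds of the study, in edgeR's quasi-likelihood test. By this rule 0 of the 9 members were called. Over all tested genes the rule called 14 genes (0.107%), of which 11 were higher (0.084%) and 3 lower (0.0229%) with caffeine. The study, which named neither its edgeR test nor a filter, reported more changed genes than this rule called, Igfbp6 among them. Igfbp5 missed it only on the adjusted p, which was 0.0584. At an unadjusted p below 0.05, 3 members were higher and 0 lower with caffeine, where 4.42% and 4.4% of the tested genes were. Of all tested genes, 7.11% were higher in each caffeine-treated heart than in any vehicle-treated heart and 7.12% were lower in each, beside 3 and 0 of the 9 members. The log2 fold changes were positive for 4 members and negative for 5, and 50.2% of all tested genes were positive. In other tests of the same genes, edgeR's exact test called 1 member as higher (background 0.466%), DESeq2 called 1 as higher (background 0.298%) and limma-voom called 0 (background 0.107%).

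**Figure D1:**
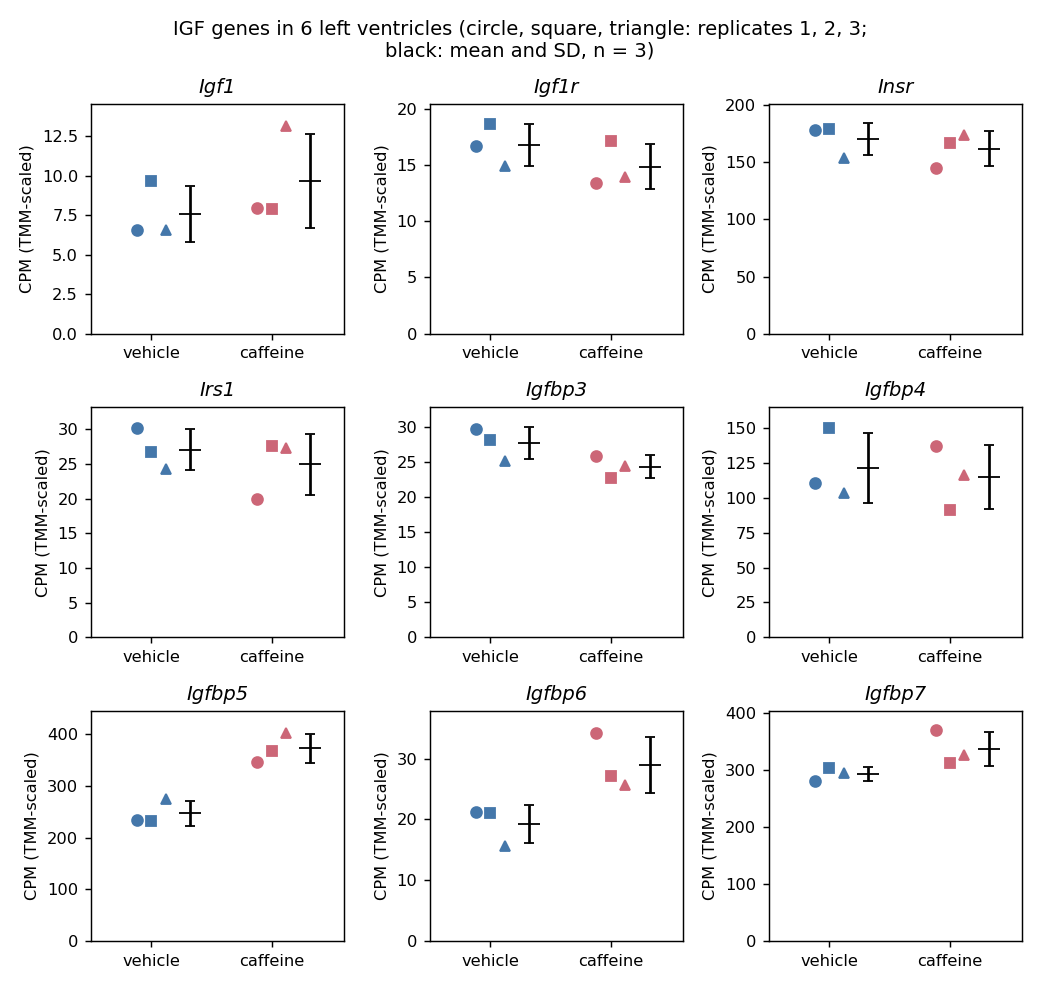
Level of each of the 9 IGF genes in each heart, in TMM-scaled CPM on linear axes that start at 0, with vehicle in blue, caffeine in red and the mean and SD (n = 3) in black. The points of the treatments are apart for Igfbp5, Igfbp6 and Igfbp7 under this scaling and overlap for the other 6 genes, and Igfbp7 overlaps with library size scaling only.

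Igf1 (ENSMUSG00000020053), which encodes the ligand, spans 87858265 to 87937042 on chromosome 10 (GRCm38, as for all positions here) and was the member with the lowest CPM. The vehicle-treated hearts had 6.55, 9.65 and 6.58 CPM (replicates 1 to 3), and the caffeine-treated hearts 7.98, 7.90 and 13.1 CPM. The highest value was that of caffeine replicate 3, and the other caffeine-treated hearts lay between the vehicle-treated hearts. The means were 7.59 ± 1.78 CPM (SD, n = 3) with vehicle and 9.67 ± 3.00 CPM (SD, n = 3) with caffeine, a log2 fold change of 0.35 (standard error 0.24, edgeR adjusted p = 0.733). The 95% interval, −0.18 to 0.88 on the log2 scale, holds no change and a rise above 1.5-fold alike. Without caffeine replicate 3 the log2 fold change was 0.06, and without vehicle replicate 2 it was 0.56. Igf1 rested on 57 to 112 counts per heart, and its fold change had the largest standard error of the 9 members.

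The 3 tested genes with the profile closest to Igf1 over the 6 hearts were Zfp707, Sass6 and Gxylt2. After each gene was centred on its mean log2 CPM, their root mean square distances from Igf1 were 0.0867, 0.101 and 0.103 log2 units, against a spread of Igf1 around its own mean of 0.339. All 3 were also highest in caffeine replicate 3, which follows from choosing them by this profile. They had adjusted p-values of 0.829, 0.885 and 0.743 in edgeR's quasi-likelihood test. Sass6 and Gxylt2 were low, at 1.11 to 2.35 and 0.977 to 2.70 CPM.

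Igf1r (ENSMUSG00000005533, chromosome 7 from 67952827 to 68233668) encodes the IGF1 receptor. Its level was 16.7, 18.6 and 14.9 CPM in the vehicle-treated hearts and 13.4, 17.2 and 14.0 CPM in the caffeine-treated hearts. Caffeine replicate 2 lay within the vehicle range and the other caffeine-treated hearts below it. The log2 fold change was −0.17 (standard error 0.15, edgeR adjusted p = 0.805), with a 95% interval from −0.49 to 0.15.

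Insr (ENSMUSG00000005534, chromosome 8 from 3122061 to 3279617), the insulin receptor gene, had 178.1, 178.9 and 154.2 CPM with vehicle and 144.8, 167.3 and 173.9 CPM with caffeine. Only caffeine replicate 1 lay below the vehicle range, and the log2 fold change was −0.07 (standard error 0.10, edgeR adjusted p = 0.895), with a 95% interval from −0.29 to 0.15. Per length, in reads per kilobase of exon mapped reads (RPKM), Insr was 11.7 to 13.0 times Igf1r in the vehicle-treated hearts and 11.9 to 15.2 times in the caffeine-treated hearts, and these ratios overlapped.

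Irs1 (ENSMUSG00000055980, chromosome 1 from 82233101 to 82291416) encodes the adaptor that links both receptors to PI3K. It had 30.2, 26.7 and 24.3 CPM with vehicle and 19.9, 27.5 and 27.3 CPM with caffeine. Caffeine replicate 1 was again the lowest heart, and the others lay within the vehicle range. The log2 fold change was −0.11 (standard error 0.15, edgeR adjusted p = 0.885), with a 95% interval from −0.43 to 0.21. When caffeine replicate 1 was left out, Insr and Irs1 had log2 fold changes of 0.0011 and 0.019, so the negative values of both rested on that heart. The intervals of Igf1r, Insr and Irs1 left out a change of 1.5-fold in either direction but not smaller ones. An exon of Gm9747, a gene with no count in any heart, overlaps an exon of Irs1 by 2822 bases on the opposite strand. With the strand setting of the counting not given, the effect of this overlap on the level of Irs1 was not tested.

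**Figure D2:**
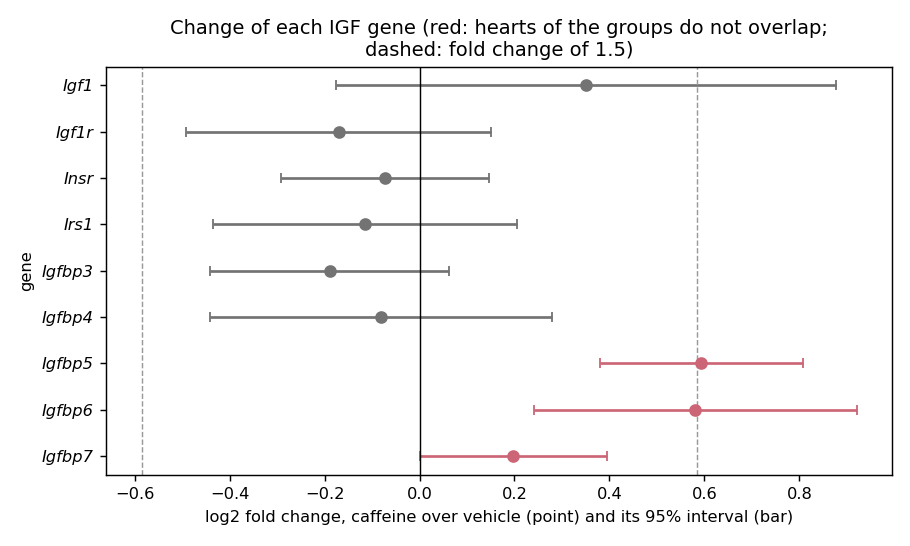
Log2 fold change of each IGF gene, caffeine over vehicle, from edgeR's quasi-likelihood fit (points) with its 95% interval (bars), and dashed lines at a fold change of 1.5. The intervals of Igfbp5 and Igfbp6 lie above 0 and reach past the line at 1.5, that of Igfbp7 starts just above 0, and those of the other 6 genes cross 0.

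Igfbp5 (ENSMUSG00000026185, chromosome 1 from 72857932 to 72874884) encodes a binding protein that also attaches to the extracellular matrix. The vehicle-treated hearts had 235.2, 231.6 and 274.8 CPM and the caffeine-treated hearts 346.9, 368.3 and 403.6 CPM. The lowest caffeine-treated heart was well above the highest vehicle-treated heart, vehicle replicate 3. The means were 247.2 ± 24.02 CPM (SD, n = 3) and 372.9 ± 28.6 CPM (SD, n = 3), a log2 fold change of 0.59 (standard error 0.10, 95% interval 0.38 to 0.81). The fold change of 1.51 was just past the threshold of 1.5, and the adjusted p of 0.0584 in the quasi-likelihood test just short of it. Ranked by unadjusted p, Igfbp5 stood at 18 of the 13092 tested genes, and the exact permutation test gave p = 0.1, the smallest that 3 hearts against 3 allow. The call changed with the test: the adjusted p was 0.000132 in edgeR's exact test and 2.9e-05 in DESeq2, both past the thresholds, and 0.0585 in limma-voom. Without vehicle replicate 3 the log2 fold change was 0.68 and the adjusted p 0.0392 in edgeR's quasi-likelihood test, also past them.

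Igfbp6 (ENSMUSG00000023046, chromosome 15 from 102144362 to 102149511) encodes the binding protein that prefers IGF2 to IGF1. It had 21.2, 21.01 and 15.7 CPM in the vehicle-treated hearts and 34.2, 27.1 and 25.7 CPM in the caffeine-treated hearts. The groups were apart, with the highest level in caffeine replicate 1 and the lowest in vehicle replicate 3. The means were 19.3 ± 3.12 CPM (SD, n = 3) and 29.0 ± 4.54 CPM (SD, n = 3), a log2 fold change of 0.58 (standard error 0.15, 95% interval 0.24 to 0.92). The adjusted p was 0.257 in edgeR's quasi-likelihood test and the fold change, 1.496, was below 1.5, so Igfbp6 missed both thresholds here. The study's own edgeR run called it, since its enrichment analysis of changed genes lists Igfbp6 under signal peptides. That list holds neither Igfbp5 nor Stc2, a gene of the wider pathway described below.

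Igfbp7 (ENSMUSG00000036256, chromosome 5 from 77349240 to 77408041) encodes a secreted protein related to the IGFBPs that binds IGFs only weakly and is made in vessel walls. It had 279.8, 303.9 and 294.7 CPM with vehicle and 369.2, 311.9 and 326.7 CPM with caffeine. The groups did not overlap, but caffeine replicate 2 was only slightly above vehicle replicate 2. The log2 fold change was 0.20 (standard error 0.09, 95% interval 0.00069 to 0.39, edgeR adjusted p = 0.564). When the counts were scaled by library size only, vehicle replicates 2 and 3, with 316.7 and 315.8 CPM, exceeded caffeine replicate 2 with 302.4 CPM, and the groups then overlapped. An exon of Polr2b overlaps an exon of Igfbp7 by 85 bases on the opposite strand, and the strand setting of the counting is not given in the sources used here.

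The RefSeq windows around the starts of these 3 genes are shown because their levels were the ones that did not overlap between the treatments. Each holds 250 bases before and 50 after the annotated start in GRCm38.p6, printed 5′ to 3′ on the strand of the gene, minus for Igfbp5 (chr1:72874816-72875115) and Igfbp7 (chr5:77407996-77408295) and plus for Igfbp6 (chr15:102143936-102144235). Capitals mark matches, on either strand, to 4 short motifs, the TATA box TATAAA, the GC box GGGCGG, the CCAAT box CCAAT and the FoxO core GTAAACA.
Igfbp5: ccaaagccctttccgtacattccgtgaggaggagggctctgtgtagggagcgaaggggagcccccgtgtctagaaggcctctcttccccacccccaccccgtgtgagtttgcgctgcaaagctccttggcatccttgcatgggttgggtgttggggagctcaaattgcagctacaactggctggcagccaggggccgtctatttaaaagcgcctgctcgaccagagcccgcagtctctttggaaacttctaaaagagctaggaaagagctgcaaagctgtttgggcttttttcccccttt
Igfbp6: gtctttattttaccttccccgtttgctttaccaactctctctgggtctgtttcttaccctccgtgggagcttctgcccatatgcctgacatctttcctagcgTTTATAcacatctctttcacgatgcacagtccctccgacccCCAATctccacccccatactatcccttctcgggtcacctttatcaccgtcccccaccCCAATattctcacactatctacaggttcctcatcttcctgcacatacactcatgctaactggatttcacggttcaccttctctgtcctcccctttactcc
Igfbp7: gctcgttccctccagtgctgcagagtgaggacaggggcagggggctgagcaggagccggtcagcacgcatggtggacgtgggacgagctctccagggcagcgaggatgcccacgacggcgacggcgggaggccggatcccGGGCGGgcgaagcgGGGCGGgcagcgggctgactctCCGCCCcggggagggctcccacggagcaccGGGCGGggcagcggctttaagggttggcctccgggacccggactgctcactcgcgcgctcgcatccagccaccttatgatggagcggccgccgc
The 3 windows had no motif in common. The Igfbp7 window held 4 GC boxes, a motif found in 35.7% of the 32851 RefSeq windows of this kind. The Igfbp6 window held 2 CCAAT boxes (37.4% of all windows have at least 1) and 1 TATA box (13.6% of windows). The Igfbp5 window held 0 of the 4 motifs, and the FoxO core, present in 3.65% of all windows, was in none of the windows of the 8 members that the RefSeq table held. The G and C content was 56.3% for Igfbp5, 49.7% for Igfbp6 and 73.3% for Igfbp7, with 10, 8 and 33 CpG dinucleotides, against a median of 52.7% over all windows. The RefSeq start of Igfbp6 lies 176 bases before the start of its GENCODE gene model, and that of Igf1r 570 bases before, so both windows end before the models start. The GENCODE model of Igf1 starts at −2846 relative to its RefSeq start. For these genes the windows may therefore miss the start used in the heart. Insr was not in the table.

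Igfbp3 (ENSMUSG00000020427, chromosome 11 from 7206086 to 7213923) encodes the main carrier of IGF1 in blood. It had 29.8, 28.2 and 25.2 CPM with vehicle and 25.9, 22.7 and 24.5 CPM with caffeine. Caffeine replicate 1 lay above vehicle replicate 3, which was the whole overlap between the groups. The log2 fold change was −0.19 (standard error 0.11, 95% interval −0.44 to 0.06, edgeR adjusted p = 0.684), opposite in sign to those of Igfbp5, Igfbp6 and Igfbp7. With library size scaling only, the highest caffeine-treated heart had 24.6 CPM and the lowest vehicle-treated heart 27.0 CPM, and the groups then did not overlap.

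Igfbp4 (ENSMUSG00000017493, chromosome 11 from 99041244 to 99054392) encodes an inhibitory binding protein that the protease PAPP-A cuts. It had 111.0, 150.0 and 103.6 CPM with vehicle and 137.3, 91.3 and 116.7 CPM with caffeine, so the ranges of the groups largely overlapped. The log2 fold change was −0.08 (standard error 0.16, 95% interval −0.44 to 0.28, edgeR adjusted p = 0.937). Without vehicle replicate 2 it was 0.10 and without caffeine replicate 2 it was 0.06, so its sign depended on which heart was left out.

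Per length, Igfbp7 was the most abundant of the 9 mRNAs in both groups, with 242.2 ± 10.1 RPKM (SD, n = 3) in the vehicle-treated and 277.8 ± 24.6 RPKM (SD, n = 3) in the caffeine-treated hearts. It was followed in the vehicle-treated hearts by Igfbp5 (41.2 RPKM), Igfbp4 (27.5 RPKM), Igfbp6 (17.4 RPKM), Insr (12.4 RPKM), Igfbp3 (8.86 RPKM), Irs1 (2.96 RPKM), Igf1r (0.997 RPKM) and Igf1 (0.767 RPKM). In this order the ranges over hearts of neighbouring genes were apart except for Igf1r and Igf1. In the caffeine-treated hearts Igfbp5 had 62.1 ± 4.77 RPKM (SD, n = 3). Igfbp4 and Igfbp6 stood at the same level there, 26.1 ± 5.22 and 26.1 ± 4.08 RPKM (SD, n = 3), and their ranges overlapped, as did those of Igf1 and Igf1r, whose means had changed places.

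The summed RPKM of the 5 binding protein genes was 324.3, 351.8 and 335.2 in the vehicle-treated hearts and 433.2, 371.6 and 394.8 in the caffeine-treated hearts, without overlap. With library size scaling only the sums overlapped, with 366.6 in vehicle replicate 2 and 360.2 in caffeine replicate 2. Igfbp7 made up 71.4% to 72.7% of this sum with vehicle and 68.5% to 70.5% with caffeine. The share of Igfbp5 was 10.96% to 13.7% with vehicle and 13.3% to 17.0% with caffeine, and these ranges overlapped. Igfbp3 made up 2.40% to 2.94% with vehicle and 1.91% to 1.98% with caffeine. Relative to Igf1, the sum was 361.0 to 504.1 times the ligand's RPKM with vehicle and 297.7 to 537.7 times with caffeine, so the balance of binding protein to ligand mRNA overlapped. These sums hold the genes already described and were given no test.

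**Figure D3:**
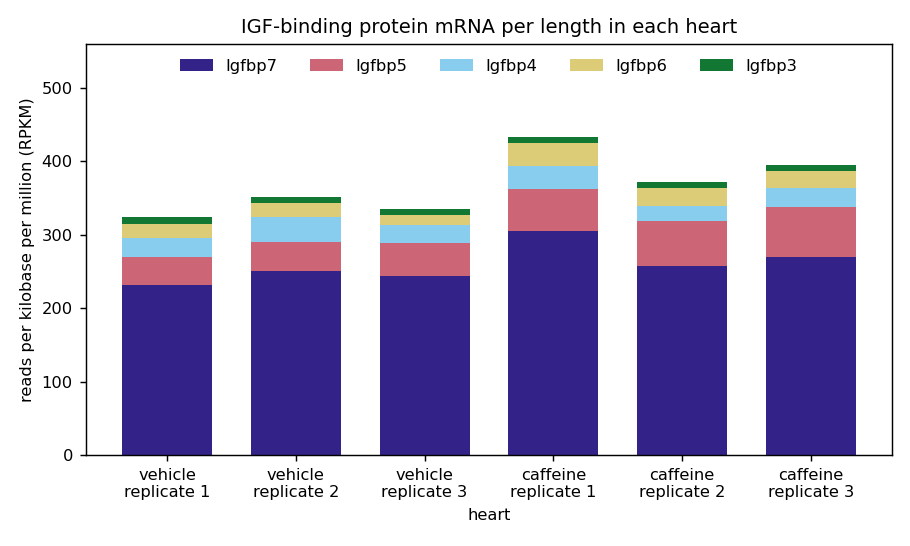
Stacked RPKM of Igfbp3 to Igfbp7 in each heart, from an axis that starts at 0. Igfbp7 fills over 68% of every bar, and the 3 caffeine-treated bars, from 371.6 to 433.2 RPKM, are all taller than the vehicle-treated bars, from 324.3 to 351.8 RPKM, under the TMM scaling plotted but not with library size scaling only.

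Fibroblasts are a main source of several IGFBPs in tissues, so the markers of other cell types were set beside these levels. The 7 fibroblast markers (Dcn, Lum, Pdgfra, Tcf21, Col1a1, Dpt and Pcolce) all had positive log2 fold changes, with a median of 0.26, and 0 of them were called. At an unadjusted p below 0.05 in the quasi-likelihood test, 3 were higher and 0 lower (backgrounds 4.42% and 4.4%). Only 1 was higher in each caffeine-treated heart than in any vehicle-treated heart, and 0 were lower (backgrounds 7.11% and 7.12%). The summed level of the 7 markers was 856.9, 947.6 and 810.3 CPM in the vehicle-treated hearts and 1177.5, 978.3 and 1013.4 CPM in the caffeine-treated hearts, again without overlap. With library size scaling only these sums overlapped too, with 987.5 CPM in vehicle replicate 2 and 948.5 CPM in caffeine replicate 2. Per 100 CPM of these markers, a ratio chosen after the values were seen, Igfbp6 was 1.94 to 2.47 CPM with vehicle and 2.53 to 2.90 CPM with caffeine, which did not overlap. On the same ratio Igfbp5 was 24.4 to 33.9 CPM with vehicle and 29.5 to 39.8 CPM with caffeine, and Igfbp7 was 32.1 to 36.4 and 31.4 to 32.2 CPM, and both overlapped.

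The 7 macrophage markers, Adgre1 and Csf1r among them, also all had positive log2 fold changes (median 0.49, 0 called), and summed to 94.2 to 141.6 CPM with vehicle and 118.9 to 216.1 CPM with caffeine. At the same unadjusted p, 3 of them were higher and 0 lower, and 3 lay above and 0 below in every caffeine-treated heart. The 7 endothelial markers had a median log2 fold change of −0.01 and summed to 863.5 to 978.1 CPM with vehicle and 853.9 to 927.7 CPM with caffeine. Of these, 0 were higher and 1 lower at that p, and 0 lay above and 1 below in every caffeine-treated heart. For smooth muscle and pericytes the 7 markers had a median of −0.20, and for red blood cells the 4 tested markers had a median of −0.03, with overlapping sums for both. The part of these cell types in the levels of the binding protein genes was not tested. In whole tissue, more cells of a type and more RNA per cell cannot be told apart.

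Over 14 other settings the log2 fold change of Igfbp5 ran from 0.51 to 0.68 and its adjusted p from 5.82e-06 to 0.214, and it was past both thresholds in 4 of them. With no filter on low counts it had the smallest of these adjusted p-values, but a log2 fold change of 0.57, below a fold of 1.5. Igfbp6 ran from 0.45 to 0.66 on the log2 scale, with adjusted p-values from 0.00661 to 0.508, and Igfbp7 from 0.11 to 0.25, with adjusted p-values from 0.49 to 0.835. Both were past the thresholds in 0 of the settings.

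**Figure D4:**
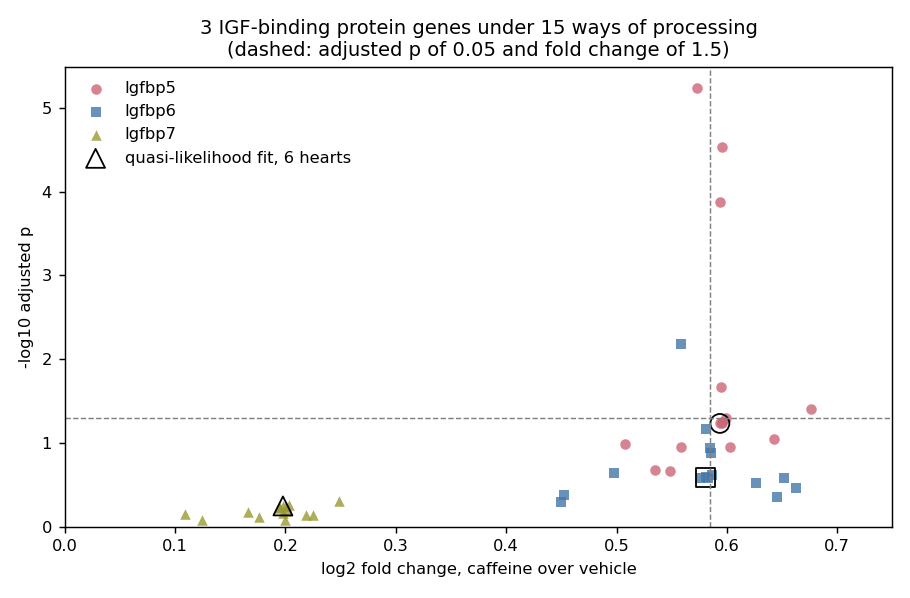
Log2 fold change (x axis) and −log10 adjusted p (y axis) of Igfbp5, Igfbp6 and Igfbp7 under the quasi-likelihood fit of 6 hearts (black outlines) and 14 other settings, with dashed lines at the thresholds. Igfbp5 lies around the crossing of the lines and is past both in 4 of the other settings, Igfbp6 is never past both, and Igfbp7 stays below 0.25 on the log2 scale.

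The wider pathway was read from 6 lists of 90 genes, of which 82 were tested. In the quasi-likelihood test 0 of the 82 were called, and edgeR's exact test called 1 as lower, Stc2 (background 0.252%). At an unadjusted p below 0.05, 0 were higher and 10 lower (backgrounds 4.42% and 4.4%). Further, 4 genes were higher and 9 lower in each caffeine-treated heart than in any vehicle-treated heart (backgrounds 7.11% and 7.12%). The log2 fold changes were positive for 28 genes and negative for 54, with a median of −0.07 beside 0.00088 over all tested genes.

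Among the genes of ligand supply and IGFBP cleavage 5 of 11 were tested. Stc2 encodes a secreted glycoprotein that blocks PAPP-A, the protease that releases IGF from IGFBP4. It had 20.9, 17.1 and 15.3 CPM with vehicle and 11.1, 10.8 and 12.2 CPM with caffeine, lower in all 3 caffeine-treated hearts. Its log2 fold change was −0.64 (standard error 0.15, 95% interval −0.98 to −0.31), with an adjusted p of 0.189 in edgeR's quasi-likelihood test, 0.0349 in the exact test and 0.0041 with no filter on low counts, both past the thresholds (background 0.424% lower with no filter). The related Stc1 was at 2.37 to 3.61 CPM with vehicle and 2.66 to 5.64 CPM with caffeine (log2 fold change 0.42, edgeR adjusted p = 0.752). It ranged from 0.16 without caffeine replicate 2 to 0.65 without caffeine replicate 1. Igf2r, the receptor that clears IGF2, differed by −0.05 on the log2 scale (edgeR adjusted p = 0.921). Igfbp1, a liver product, had no count in any heart, which allows up to 0.286 to 0.394 CPM without TMM factors, and Igfbp2 and Pappa were below the filter.

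All 7 genes of growth hormone input were tested, with a median log2 fold change of 0.04. Ghr, the growth hormone receptor, was at 206.1, 202.4 and 190.7 CPM with vehicle and at 176.7, 186.1 and 183.4 CPM with caffeine. The groups did not overlap, but the log2 fold change was only −0.13 (standard error 0.08, edgeR adjusted p = 0.679). The feedback inhibitors Cish and Socs3, which STAT factors induce, had log2 fold changes of 0.32 and 0.33 with adjusted p-values of 0.595 and 0.792 in edgeR's quasi-likelihood test, and overlapped. Without vehicle replicate 2 Socs3 was at 0.69 and without caffeine replicate 1 at 0.13 on the log2 scale.

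Of the receptor adaptors and phosphatases 10 of 12 were tested, with a median log2 fold change of −0.06. The adaptors Gab1 and Grb2 and the phosphatase gene Ptpn11, which join the receptors to PI3K and RAS, lay below in every caffeine-treated heart. Gab1 had 59.3, 59.5 and 56.3 CPM with vehicle and 38.8, 52.5 and 48.2 CPM with caffeine, a log2 fold change of −0.33 (standard error 0.11, edgeR adjusted p = 0.404). Grb2 and Ptpn11 had log2 fold changes of −0.19 and −0.23 (edgeR adjusted p = 0.55 and 0.512). Of the rest of the list, the phosphatase gene Ptpn1 was also lower in each caffeine-treated heart, and the adaptor Shc1 and the feedback inhibitor Socs1 were higher in each, 3 genes named here after their values were seen. Shc1 had 20.97 to 22.05 CPM with vehicle and 22.3 to 27.4 CPM with caffeine (log2 fold change 0.17, edgeR adjusted p = 0.761) and overlapped with library size scaling only. Socs1 had 0.782 to 1.22 CPM with vehicle and 1.41 to 1.69 CPM with caffeine (log2 fold change 0.60, edgeR adjusted p = 0.654). Irs4, a further substrate gene, had no count in any heart.

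For PI3K, AKT and mTOR all 29 genes were tested, 8 with positive and 21 with negative log2 fold changes and a median of −0.09. Pik3r1 encodes the main regulatory subunit of PI3K, which docks on IRS1. It had 335.9, 266.5 and 266.0 CPM with vehicle and 192.3, 198.0 and 273.0 CPM with caffeine, and only caffeine replicate 3 reached the vehicle range. Its log2 fold change was −0.39 (standard error 0.14, edgeR adjusted p = 0.425), and ran from −0.57 without caffeine replicate 3 to −0.27 without vehicle replicate 1. Eif4ebp2, a repressor of translation that mTOR switches off, was lower in every caffeine-treated heart (log2 fold change −0.27, edgeR adjusted p = 0.469), while the AKT isoform gene Akt2 overlapped (−0.19, edgeR adjusted p = 0.618). Akt1, named after its values were seen, was higher in each caffeine-treated heart, at 157.8 to 169.8 CPM against 149.1 to 156.7 CPM (log2 fold change 0.09, edgeR adjusted p = 0.805), but not with library size scaling only.

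The 14 genes of RAS and ERK signalling were all tested and lay between −0.16 and 0.14 on the log2 scale, with a median of 0.04. The 3 with the smallest p-values were the kinase genes Map2k1 (0.14, edgeR adjusted p = 0.689) and Braf (−0.16, edgeR adjusted p = 0.78) and the ERK phosphatase gene Dusp6 (0.14, edgeR adjusted p = 0.792). Dusp6 was above in every caffeine-treated heart, at 20.3 to 20.8 CPM against 17.8 to 19.3 CPM, but not with library size scaling only.

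Of the FoxO factors and genes known as their targets all 17 were tested, 2 with positive and 15 with negative log2 fold changes, and the median was −0.18. Their summed level was 4245, 2419 and 2509 CPM with vehicle and 2728, 2244 and 2392 CPM with caffeine. These sums overlapped, and vehicle replicate 1 stood above all other hearts. The factor Foxo1 had 44.9, 38.5 and 39.5 CPM with vehicle and 27.9, 34.8 and 34.1 CPM with caffeine (log2 fold change −0.34, standard error 0.12, edgeR adjusted p = 0.387). Foxo4 had 67.2, 72.8 and 74.3 CPM with vehicle and 59.8, 61.9 and 57.9 CPM with caffeine (log2 fold change −0.25, standard error 0.09, edgeR adjusted p = 0.387). Neither factor overlapped between the treatments. For Foxo3 the log2 fold change was −0.30 (standard error 0.12, edgeR adjusted p = 0.509), and caffeine replicate 2 lay within its vehicle range. Without vehicle replicate 1 the log2 fold changes of Foxo1 and Foxo3 shrank to −0.27 and −0.18, and that of Foxo4 was −0.30. The list holds factors that AKT keeps out of the nucleus by phosphorylation, which mRNA levels do not show.

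**Figure D5:**
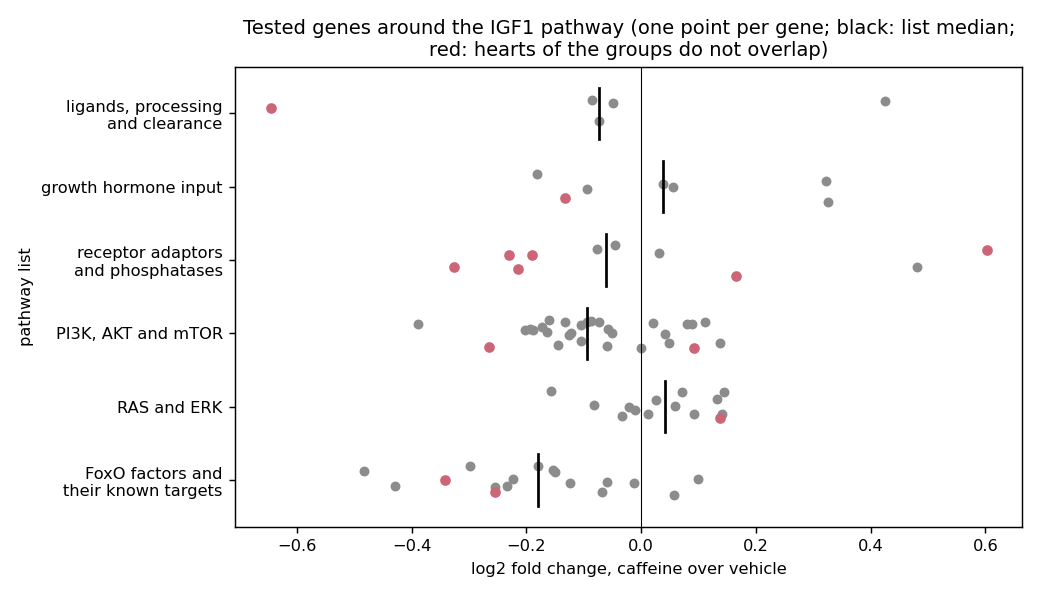
Log2 fold change, caffeine over vehicle, of each of the 82 tested genes of the 6 pathway lists (points, spread vertically only for legibility), with list medians in black and genes whose groups do not overlap under TMM scaling in red. The medians run from −0.18 for the FoxO list to 0.04 for the RAS and ERK list, and 0 genes passed both thresholds of the quasi-likelihood test.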

How the data were processed

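Poly(A) RNA of 6 left ventricles was sequenced as single-end reads on a NextSeq500. Per the study's methods, FastQC was run on the reads, TopHat2 aligned them to mm10, and HTSeq counted them, with Ensembl release 79 as the annotation. The deposited values are these raw counts, not normalized and not pooled. Versions and the strand setting are not given in the sources used here. The study used edgeR without naming its test or a filter.

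Groups and replicate numbers came from the sample titles. After filterByExpr (minimum count 10, minimum total 15) and TMM scaling, treatment alone was tested in edgeR by glmQLFit and glmQLFTest, with Benjamini-Hochberg adjustment over 13092 genes. The biological coefficient of variation was 12.1%. Standard errors are the absolute log2 fold change divided by the square root of F, and 95% intervals use the t distribution on the degrees of freedom of the test. RPKM divides CPM by the union of GENCODE M21 exons of GRCm38, which is not the counting annotation. The permutation test is exact and two-sided, on log2(CPM + 0.5). Replicates of a group differed by more than sampling noise (chi-square per degree of freedom 5.66 to 15.1). Symbols matched 42462 of 43629 identifiers. Promoter windows are from RefSeq (GRCm38.p6).

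The members and gene lists were chosen with earlier results of these data known. Named were all members, the 3 pathway genes of each list with the smallest p, and the 3 profiles nearest to Igf1. Simulated counts for this comparison with 200 of 13092 genes changed gave 189 recovered and 7 false calls with the quasi-likelihood test. Recovery at fold changes as small as those of the members was not tested, and the 189 recovered are no measure of it. Alternatives changed the test (edgeR's exact test, DESeq2, limma-voom), the scaling (size factors as in DESeq2, or library size only), the filter (none, or 10 counts or more in all hearts), the replicate block, the fold threshold, or left out each heart. The models ran in R 4.3.3 with limma 3.58.1, DESeq2 1.42.0 and edgeR 4.0.16. Tables and plots were made with Matplotlib 3.10.9, SciPy 1.17.1 and pandas 2.3.3 in Python 3.11.15.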

Additional observations from a re-analysis of the deposited data

How the results depend on the processing

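Over the 9 members and 14 settings, 118 of 126 log2 fold changes kept their sign and their side of the thresholds. The exceptions were the 4 calls of Igfbp5 with edgeR's exact test (0.59), DESeq2 (0.60), the replicate block (0.59, adjusted p = 0.0216) and without vehicle replicate 3 (0.68), and 4 values that turned positive. With a heart left out, Insr ran from −0.14 to 0.0011 and Irs1 from −0.19 to 0.019 (both positive without caffeine replicate 1), and Igfbp4 from −0.23 to 0.10 (positive without vehicle replicate 2 and, at 0.06, without caffeine replicate 2). The count of members past the thresholds was 1 higher in each of those settings for Igfbp5, 0 to 1 with a heart left out, and 0 lower throughout. Stc2 was the 1 pathway gene past the thresholds, lower, with the exact test and with no filter. Members below in every caffeine-treated heart numbered 1 with library size only, where 14.0% of all tested genes did, and 0 to 2 with a heart left out, where 10.8% to 13.3% did (Insr and Igfbp3 without vehicle replicate 3, Igfbp3 without caffeine replicate 1, Igf1r without caffeine replicate 2). Those above numbered 2 with library size only (3.06% of all tested genes) and 3 or 4 with a heart left out (11.2% to 13.4%).

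Over the genes tested in each setting, 11 higher and 3 lower became 61 and 33 with the exact test and 39 and 28 with DESeq2. With no filter they became 145 and 95, out of 22407 genes instead of 13092. They were 29 and 11 with the replicate block, and 15 were lower with library size only. With a heart left out, 4 to 17 were higher and 0 to 13 lower. Same-numbered hearts did not deviate together (correlations 0.05, −0.03 and −0.04), and only vehicle replicate 1 correlated best with its own number, so the numbers were not taken as pairs. The cause of these shifts was not tested. Depth limits the levels of Igfbp1 and Irs4, which had no counts, to the 3-count floor of 0.286 to 0.394 CPM, taken without TMM factors.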
